A study of Mus musculus with 4 samples.

Results

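The cells described here are 264 droplet barcodes from mouse renal capsule that carried transcripts of Ly6c2 and Ccr2, and they make up 0.707% of the 37361 barcodes kept. They were chosen by counts of unique molecular identifiers (UMIs, 1 per captured transcript): at least 1 UMI each of Ly6c2 and Ccr2, at least 5 of Lyz2, fewer than 6 of C1qa, C1qb and C1qc together, fewer than 2 of Cd209a, and none of Cd3e or Cd79a. To be kept, a barcode needed 500 UMIs and 300 genes or more, with a mitochondrial part of 20% or less, and 37361 of 39436 passed. The renal capsule is the connective tissue sheath around the kidney, and the study profiled it by single-cell RNA sequencing in untreated mice, with 2 young and 2 aged libraries. Whole capsules were digested with a collagenase blend and DNase, no sort is mentioned, and the sources used here give no age, strain or number of mice for any library. Nothing says that the 2 libraries of an age came from separate animals, so each p-value is set against a spread that may be technical.

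Young replicates 1 and 2 gave 29 and 39 of these cells, and aged replicates 1 and 2 gave 79 and 117. Their summed depth ranged from 223158 to 823803 UMIs per library, with medians per cell of 7584 and 6206 UMIs in the young and 8689 and 5869 in the aged libraries. Any pair of libraries had 18 to 37 kept barcode sequences in common, none of them among the 264. Xist and Ddx3y levels set no library apart from the others. The 2 libraries of an age differed by more than counting error, with a chi-square over degrees of freedom of 3.79 in the young and 2.04 in the aged sums.

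Classical monocytes are short-lived blood cells made in bone marrow. In mice they carry the surface protein Ly6C, and the chemokine receptor Ccr2 lets them leave the marrow and enter tissue. There they can turn into macrophages, or take on antigen-presenting features marked by major histocompatibility complex (MHC) class II. Conventional dendritic cells of type 1, known for the receptors Xcr1 and Clec9a, come from a separate progenitor that depends on the cytokine receptor Flt3.

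Ly6c2 (chromosome 15, 75108158 to 75111970 in genome build GRCm38) encodes a form of the Ly6C protein. It was sparse in the chosen cells, which held 1 to 85 UMIs with a median of 3, and 85 of the 264 had exactly 1. Ccr2 (chromosome 9, 124101950 to 124113557) had a median of 6 UMIs, and Lyz2, the lysozyme of myeloid cells, a median of 157.5. As levels over the cells of a library, in counts scaled to 1000000 UMIs (CPM), Ly6c2 stood at 506 and 805 CPM in the young and 736 and 588 in the aged libraries. These values follow from the rule and describe the cells only. T cells, with 593 and 628 CPM in the young and 703 and 714 in the aged libraries, held a similar level of Ly6c2, so that gene alone does not set these cells apart in the capsule.

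Cells just inside and just outside the Ly6c2 threshold differed in their other markers. The 85 cells with 1 Ly6c2 UMI had 1112 CPM of Plac8, a small protein abundant in monocytes, and 7093 CPM of the MHC class II chain H2-Ab1. The 1035 barcodes that met every other condition but had 0 Ly6c2 UMIs had 241 CPM of Plac8 and 8304 of H2-Ab1. Fn1 (fibronectin), which monocytes also express, went the other way, with 667 CPM inside and 1457 outside. On the Ccr2 side, 18 cells had 1 UMI and 2559 CPM of Plac8, and 14 barcodes with 0 UMIs stood outside with 1287, while Chil3, a chitinase-like protein of monocytes, stood at 548 CPM inside and 644 outside. The C1q limit left out 47 barcodes, the Cd209a limit 19 and the Lyz2 limit 184.

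The marker Plac8, which the rule did not use, was found in 65.5% and 92.3% of the young cells and 84.8% and 87.2% of the aged cells. Macrophages of the same libraries (at least 20 C1q UMIs) had a Plac8 UMI in 15.4%, 14.8%, 24.1% and 23.8% of cells at similar depth, with medians of 7165 to 10103 UMIs. Plac8 was not limited to them, since fibroblasts held it in 67.5% to 80.0% of cells. The level of Plac8 was 1676 and 2599 CPM in the young and 1933 and 2067 in the aged libraries. The highest level in any other gated class was 1500 CPM, in the Ly6c-low monocytes of aged replicate 2, and fibroblasts had 421 to 691 CPM. Neutrophil markers were nearly absent: 8 of 16 were at 0 in every library, among them Ly6g and Retnlg, and the whole list summed to between 44.8 and 102 CPM.

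The label did not hold for all of the cells, because 59 of the 264 (22.3%) carried Xcr1 or Clec9a, markers of type 1 dendritic cells. They numbered 11 and 8 in the young and 18 and 22 in the aged libraries. In macrophages Xcr1 was found in 0.504% to 1.02% of cells, against 15.4% to 34.5% of the chosen cells by library. The whole set is therefore called Ly6c2 Ccr2 cells below, after its rule.

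MHC class II transcripts fell into a low and a high range over the Ly6c2 Ccr2 cells. H2-Aa, H2-Ab1 and H2-Eb1 encode the chains that present peptides to helper T cells, and their UMIs were summed per cell. A total of 123 cells had fewer than 5 UMIs of the 3 genes and 122 had 20 or more, while only 19 lay between. The limits of 5 and 20 UMIs were chosen after seeing the counts, and 1, 2, 7 and 8 cells of the 4 libraries lay within 3 to 7 UMIs. The low range held 14 and 24 young and 33 and 52 aged cells, and the high range 14 and 15 young and 42 and 51 aged cells. Of the 59 cells with Xcr1 or Clec9a, 58 were in the high range.

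**Figure D1:**
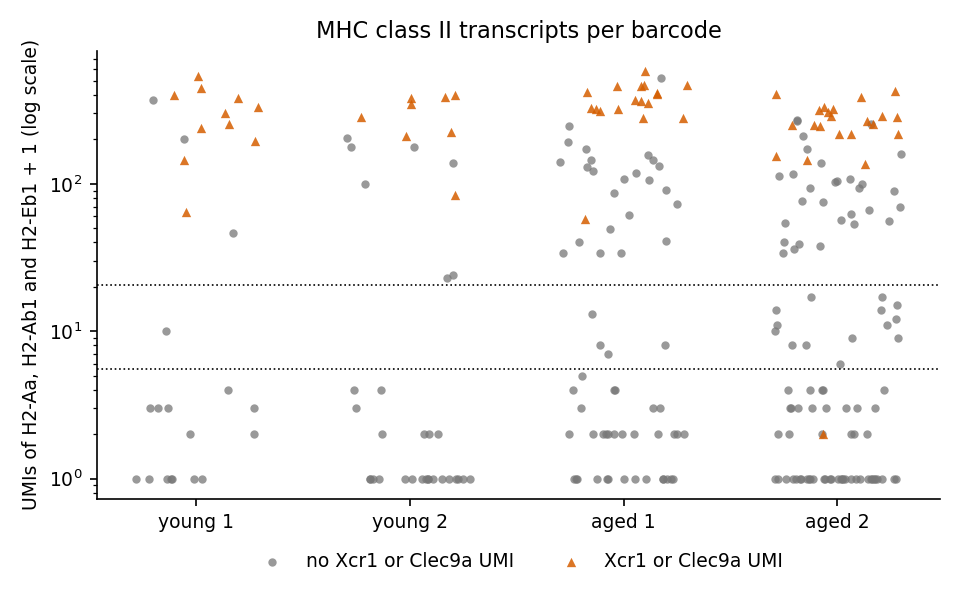
UMIs of H2-Aa, H2-Ab1 and H2-Eb1 plus 1 per cell (log axis) in the 4 libraries, 1 point per Ly6c2 Ccr2 cell, with triangles for cells that carried Xcr1 or Clec9a. The dotted lines bound the range of 5 to 19 UMIs, which holds 19 of 264 cells, and 58 of 59 triangles lie above it.

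The MHC class II genes share a promoter design in which an X box and a Y box bind the factors that recruit the coactivator Ciita, so the bases before 2 of them are shown beside the range they defined. The sequences are the 250 bases before the start of each gene in RefSeq (GRCm38.p6), and H2-Ab1 is named only. H2-Aa lies on the minus strand at chr17:34287824-34288073, and H2-Eb1 on the plus strand at chr17:34305617-34305866. Capitals mark the letters CCAAT, as in a Y box core, and GCAAC, as within an X box, on either strand. They were searched after the sequences had been read, and a match need not be such a box.
H2-Aa: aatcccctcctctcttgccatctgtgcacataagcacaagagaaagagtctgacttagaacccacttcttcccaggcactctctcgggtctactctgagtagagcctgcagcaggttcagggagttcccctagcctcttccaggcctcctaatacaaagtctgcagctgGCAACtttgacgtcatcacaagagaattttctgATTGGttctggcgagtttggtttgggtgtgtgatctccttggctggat
H2-Eb1: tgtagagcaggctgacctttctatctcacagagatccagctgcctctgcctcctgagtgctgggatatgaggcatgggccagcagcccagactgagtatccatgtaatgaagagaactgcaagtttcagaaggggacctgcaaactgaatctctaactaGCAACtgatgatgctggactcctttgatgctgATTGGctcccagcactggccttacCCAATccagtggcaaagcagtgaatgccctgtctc
In H2-Aa the CCAAT match began 48 bases before the start and the GCAAC match 81 bases before it. In H2-Eb1 the GCAAC match began 91 bases before the start, and CCAAT matches began at 59 and 35. Over all 32851 promoters in the table, 33.8% held CCAAT, 29.9% held GCAAC and 10.6% held both in the same window. The matches describe the letters and do not show that a factor was bound.

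Most cells low in MHC class II had the more abundant markers of classical monocytes. Of these 123 cells, 95.9% had Plac8, 90.2% had Fn1, 91.1% had Hp (haptoglobin), 89.4% had Gsr (glutathione reductase) and 64.2% had Chil3. Vcan, a matrix proteoglycan of classical monocytes, was found in 34.1%. Of genes associated with the Ly6c-low state, Nr4a1 was found in 89.4%, Spn (the sialoprotein CD43) in 26.0% and Ace (angiotensin-converting enzyme) in 23.6%. Ear2, Treml4 and Pglyrp1, also markers of that state, were found in 18.7%, 16.3% and 12.2%. Csf1r, the receptor that maintains monocytes and macrophages, was found in 87.0%, and Cx3cr1, the fractalkine receptor, in 78%. Ly6c2 itself stood at 1137 CPM in these cells. Nr4a1 was not particular to them, being found in 92.2% and 79.3% of cells high in MHC class II without and with Xcr1 or Clec9a.

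A second group was high in MHC class II and carried neither Xcr1 nor Clec9a (64 cells). These cells kept Plac8 (92.2% of cells), Csf1r (89.1%), Cx3cr1 (84.4%) and F13a1, a coagulation factor chain made by monocytes (78.1%). Chil3 was found in 37.5%, Hp in 60.9% and Vcan in 6.25%. Ly6c2 stood at 543 CPM, and Il1b, the inflammatory cytokine, at 1487 CPM against 1152 in the cells low in MHC class II. Clec10a, a lectin of antigen-presenting cells, was found in 42.2% against 16.3%.

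The third group was high in MHC class II and carried Xcr1 or Clec9a (58 cells). Csf1r was found in 3.45%, F13a1 in 3.45%, Cx3cr1 in 8.62% and Chil3 in none. The absence of Chil3 allows up to 5.17% of cells with a Chil3 UMI at this depth. Plac8 was not absent, being found in 48.3% of these cells at a level of 318 CPM. Wdfy4, needed for cross-presentation, was found in 94.8%, Irf8, the factor that specifies these dendritic cells, in 96.6%, and Flt3 in 72.4%. Lyz2 stood at 2167 CPM against 31136 in the cells low in MHC class II, and Ly6c2 at 183. Their median depth was higher, at 12854 UMIs per cell against 5726. These shares follow from a grouping made on the same cells and are given without a test.

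**Figure D2:**
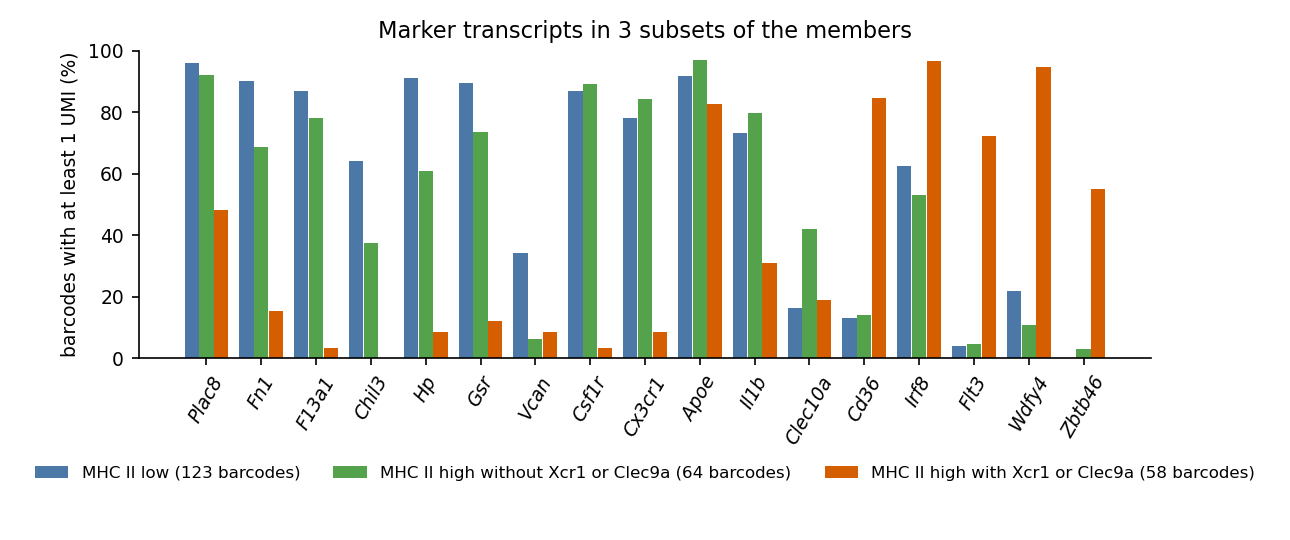
Percent of cells with at least 1 UMI of 17 marker genes (bars) in 3 groups of Ly6c2 Ccr2 cells from all 4 libraries. Csf1r reaches 87.0% and 89.1% in the groups without Xcr1 or Clec9a and 3.45% in the group with them, and Chil3 goes from 64.2% to 37.5% to none.

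Transcripts of other cells were present in some of the Ly6c2 Ccr2 cells. Genes of fibroblast, lymphoid, vascular, mesothelial, tubule or mast cells summed to 3 or more UMIs in 57 cells, 10 and 11 in the young and 14 and 22 in the aged libraries. Fibroblast markers, all 15 of them detected, summed to 721 and 8606 CPM in the young and 3345 and 3637 CPM in the aged libraries, so young replicate 1 was low and young replicate 2 was high. The genes that picked those 57 cells include Col1a1, Col1a2, Col3a1 and Dcn, so any other cell held fewer than 3 of their UMIs. In young replicate 2, 98.2% of the UMIs of these genes sat in the 57 cells, with 98.7% and 98.2% in aged replicates 1 and 2. In young replicate 1 it was 60.4%. A high share thus follows in part from the choice of the cells. T cell and natural killer markers summed to 40.3, 98.9, 124 and 566 CPM, and Cd3d was found in 10 cells of aged replicate 2 and 1 of aged replicate 1. Of these cells with Cd3d, 8 were in the group with Xcr1 or Clec9a, 2 in the other group high in MHC class II and 1 in the low range. Endothelial and mural markers summed to 85.1, 113, 224 and 543 CPM. Tubule markers went the other way, with 515 and 559 CPM in the young and 287 and 244 in the aged libraries. The part of these transcripts in the gene results below was not tested, except where values without the 57 cells are given.

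The Ly6c2 Ccr2 cells made up a larger share of the cells from aged than from young capsules. They were 0.323% of kept barcodes in young replicate 1 (95% exact binomial interval 0.216 to 0.463%) and 0.405% in young replicate 2 (0.288 to 0.553%). In aged replicate 1 they were 1.17% (0.926 to 1.45%) and in aged replicate 2 0.977% (0.809 to 1.17%). Both aged libraries lay above both young ones. The means were 0.364 ± 0.0580% and 1.07 ± 0.135% (SD, n = 2 libraries each), a 2.95-fold difference. By edgeR on the counts of 17 classes the log2 ratio was 1.55 ± 0.232 (SE, adjusted p = 0.0052). These classes include the barcodes outside every gate and leave out the gated mature dendritic cells, which were too few. Of the 17 classes 70.6% passed that test, and 47.1% passed it with a higher share in aged libraries. A shift of this kind was thus common among the classes of this tissue. The exact permutation test over the 4 libraries gave p = 0.333, the smallest it can give. Intervals cover counting error only.

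The size of the difference depended on what the cells were counted against. Of immune barcodes they were 0.857% and 1.08% in young libraries, against 1.74% and 1.52% in aged ones, a log2 ratio of 0.75 that did not pass the test (adjusted p = 0.053). Of myeloid barcodes alone, which leaves out the lymphocytes, they were 0.98% and 1.26% in the young and 3.79% and 3.48% in the aged libraries, a log2 ratio of 1.68 (adjusted p = 4.2e-05). The call was also lost with TMM scaling of the class counts (log2 ratio 1.29, adjusted p = 0.13) and after every barcode was thinned to 1500 UMIs (1.04, adjusted p = 0.062). Thinning left 12 and 25 young and 30 and 48 aged cells that met the rule.

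**Figure D3:**
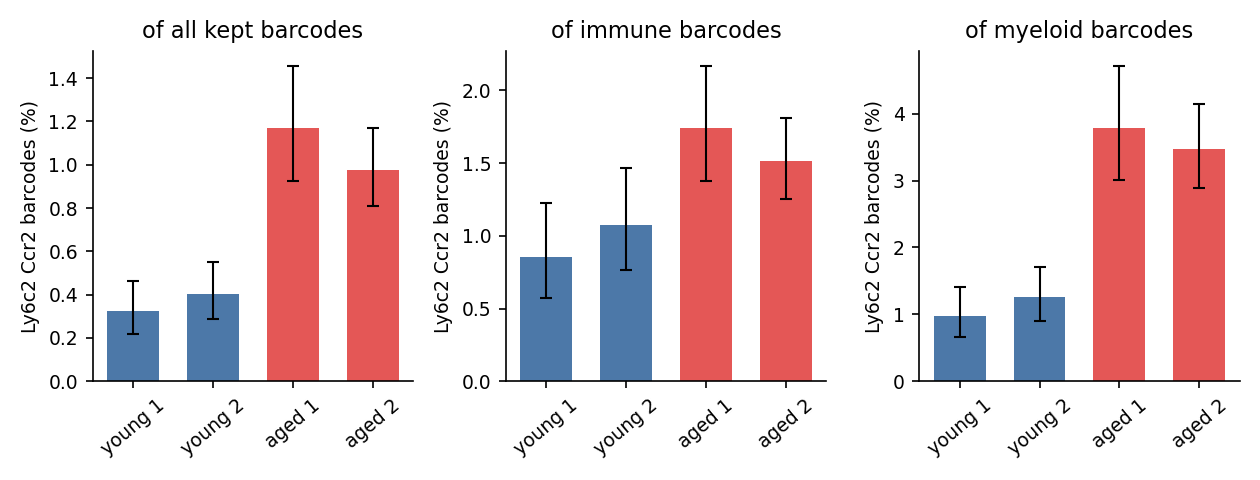
Share of Ly6c2 Ccr2 cells (bars, percent) of all kept, immune and myeloid barcodes in each library, with 95% exact binomial intervals. Aged libraries lie above young ones in each panel, at 0.977% and 1.17% against 0.323% and 0.405% of kept barcodes.

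All 3 groups of these cells were more frequent in both aged libraries. Cells low in MHC class II were 0.156% and 0.249% of kept barcodes in the young and 0.488% and 0.434% in the aged libraries, 2.28-fold by the means. Counted alone they gave a log2 ratio of 1.17 (edgeR, adjusted p = 0.025). Cells high in MHC class II without Xcr1 or Clec9a were 0.0334% and 0.0726% in the young and 0.355% and 0.251% in the aged libraries, 5.71-fold by the means and resting on 3 and 7 young cells. Those with Xcr1 or Clec9a were 0.122% and 0.0830% against 0.266% and 0.175%, or 2.15-fold. Without the Xcr1 or Clec9a cells the Ly6c2 Ccr2 share had a log2 ratio of 1.69 (adjusted p = 0.0090), and without the cells carrying transcripts of other lineages as well 1.95 (adjusted p = 0.0096).

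The shares of the groups within the Ly6c2 Ccr2 cells were then compared between the ages. The group high in MHC class II without Xcr1 or Clec9a was 10.3% (95% exact binomial interval 2.19 to 27.4%) and 17.9% (7.54 to 33.5%) of the young cells. It was 30.4% (20.5 to 41.8%) and 25.6% (18.0 to 34.5%) of the aged cells. The libraries of the 2 ages did not overlap, but their counting intervals did. The same held in the other direction for cells low in MHC class II. They were 48.3% (29.4 to 67.5%) and 61.5% (44.6 to 76.6%) of the young cells. Of the aged cells they were 41.8% (30.8 to 53.4%) and 44.4% (35.3 to 53.9%). The group with Xcr1 or Clec9a was 37.9% and 20.5% in young libraries, against 22.8% and 17.9% in aged ones, and here the ages overlapped. Cells with between 5 and 19 MHC class II UMIs numbered 1 and 0 in the young and 4 and 14 in the aged libraries. Mki67, a marker of dividing cells, was found in 1, 2, 2 and 8 cells. Of these cells, 10 were in the group with Xcr1 or Clec9a, 1 in the other group high in MHC class II and 2 in the low range.

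Few genes of the Ly6c2 Ccr2 cells differed between the ages beyond the spread of these libraries. Over UMIs summed per library, edgeR called 2 of the 5982 genes outside the rule (0.0334%) at an adjusted p under 0.05, 1 higher (0.0167%) and 1 lower (0.0167%) in aged cells, and 339 (5.67%) had an unadjusted p under 0.05. DESeq2 called 11, of which 2 were higher and 9 lower. Single libraries decided the number of calls: edgeR called 158 genes without young replicate 1, 273 without young replicate 2, 1 without aged replicate 1 and none without aged replicate 2, where 66 had an unadjusted p under 0.05. The median log2 fold change of all tested genes was close to 0 (-0.0044). Both aged libraries lay above both young ones for 18.2% of genes and below them for 17.5%.

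The gene that fell was mt-Rnr1, the small ribosomal RNA of mitochondria (mitochondrial genome, 70 to 1024). Its level was 3568 and 3493 CPM in the young and 1539 and 1711 CPM in the aged libraries, with means of 3531 ± 52.9 and 1625 ± 121 (SD, n = 2 libraries each). The ages did not overlap, and the log2 fold change was -1.12 ± 0.13 (SE, adjusted p = 0.046). The other mitochondrially encoded transcripts lay on the same side. All 12 tested were lower in both aged libraries with a median log2 fold change of -0.84. The mitochondrial genes were grouped after their values were seen. They were tested as genes outside the rule, but the filter on kept barcodes used their UMIs. It capped the mitochondrial part of each cell at 20%, and its part in these values was not tested. mt-Nd4, a subunit of respiratory complex I, went from 1546 and 1497 to 741 and 776 CPM (log2 fold change -1.0, adjusted p = 0.072). DESeq2 called mt-Rnr1, mt-Rnr2, mt-Nd1, mt-Nd2, mt-Nd4, mt-Nd5 and mt-Cytb lower. The median mitochondrial share per cell moved with them, at 2.57% and 2.75% in the young and 1.38% and 1.61% in the aged libraries. Macrophages of the same libraries held mt-Rnr1 at 2583 and 2465 CPM in the young and 1387 and 1437 CPM in the aged libraries. The age effect of mt-Rnr1 in Ly6c2 Ccr2 cells differed from theirs by -0.18 ± 0.15 on the log2 scale (SE, adjusted p = 0.97).

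The gene that rose was Igkc, the constant part of the antibody kappa light chain (chromosome 6, 70726435 to 70726966), which B and plasma cells make. It gave 1 and 0 UMIs in the young and 104 and 181 UMIs in the aged libraries, or 4.77, 0, 137 and 231 CPM, with a fitted log2 fold change of 6.34 ± 0.72 (SE, adjusted p = 0.046). Over the summed UMIs the aged to young ratio was 90.9, with a 95% exact counting interval of 16.2 to 3601 because the young cells held 1 UMI. Igkc was not among the genes that DESeq2 called. It was found in 65.8% and 77.8% of the aged Ly6c2 Ccr2 cells, at no more than 5 UMIs per cell. In fibroblasts, which do not make antibody, it was found in 1.66% and 0.972% of young cells, against 56.3% and 70.9% of aged ones, and median depths were 8182.5 and 5359 UMIs in aged fibroblasts against 8689 and 5869 in aged Ly6c2 Ccr2 cells. In each aged library the share of Ly6c2 Ccr2 cells with an Igkc UMI thus lay somewhat above that of fibroblasts and was high together with it. The part of RNA from outside the cells in this result was not tested. Of 18 B and plasma cell markers, 3 were at 0 in all libraries, and the list summed to 193, 222, 483 and 465 CPM.

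**Figure D4:**
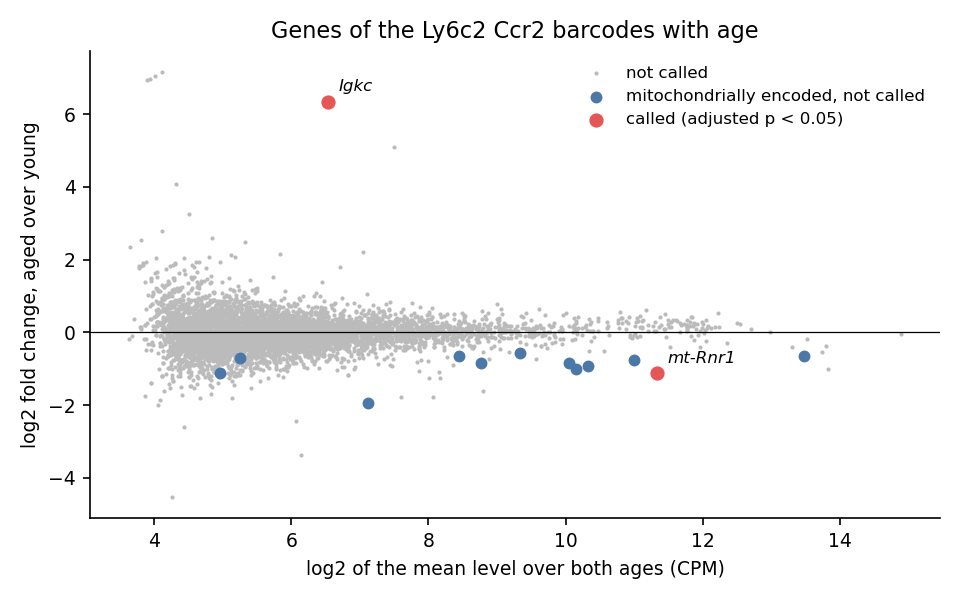
Log2 fold change of each tested gene in Ly6c2 Ccr2 cells, aged over young, against the log2 of its mean level in CPM, 1 point per gene. The 2 called genes are Igkc at 6.34 and mt-Rnr1 at -1.12, and the mitochondrially encoded transcripts (blue) all lie below 0.

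No gene of classical monocyte identity was called with age, of 22 list members tested. Both aged libraries lay above the young ones for 4 of them and below for 1, where 18.2% of all genes lay above and 17.5% below, and the median was -0.01. Without the Xcr1 or Clec9a cells 2 lay above and 6 below, where 19.6% of all genes lay above and 17% below. These counts are small, and the change between the fits was not tested. Plac8 stood at 1784 and 2683 CPM in the young and 2022 and 2171 CPM in the aged libraries, so the aged values lay between the young ones (log2 fold change -0.09 ± 0.19, SE). Fn1 stood at 716 and 923 against 862 and 788 CPM (0.01 ± 0.17). Chil3 stood at 224 and 532 against 306 and 391 CPM (-0.14 ± 0.34). For each of the 3, the young libraries were further apart than the aged ones.

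Genes associated with the Ly6c-low, patrolling state and monocyte transcription factors had no call either. Of 18 tested genes of the Ly6c-low list 4 were higher and 2 lower in both aged libraries, with a median of -0.07. Of 22 transcription factors 6 were higher and 4 lower, with a median of 0.17. Over all genes 18.2% were higher and 17.5% lower. Without the Xcr1 or Clec9a cells the counts of the 2 lists were 1 and 3 of 16, and 7 and 3 of 22. In that fit 19.6% of all genes were higher and 17% lower. Klf2, a transcription factor of quiescence and migration, stood at 840 and 859 CPM in the young and 1150 and 1285 CPM in the aged libraries (0.52 ± 0.14, adjusted p = 0.82). Cebpb, which sustains Ly6c-low monocytes, stood at 1503 and 1592 against 2022 and 1871 CPM (0.33 ± 0.13). Nr4a1, the nuclear receptor required for that state, stood at 506 and 387 against 676 and 584 CPM (0.50 ± 0.19). In each of these 3 the aged libraries lay above the young ones, as they did for 18.2% of all genes. Others of high level overlapped between the ages. Itga4, an integrin chain, stood at 286 and 338 against 280 and 326 CPM (-0.05 ± 0.19), and Irf8 at 1212 and 475 against 652 and 673 CPM (-0.33 ± 0.35).

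The most abundant MHC class II genes were highest in young replicate 1. Cd74, the invariant chain, stood at 15246 and 9825 CPM in the young and 10897 and 11068 CPM in the aged libraries, and H2-Ab1 at 7146 and 4434 against 4893 and 4581 CPM. That library also had the largest share of cells with Xcr1 or Clec9a. The median of 11 tested MHC class II genes was -0.29, with 1 higher and 1 lower in both aged libraries. Over all genes 18.2% were higher and 17.5% lower. Without the Xcr1 or Clec9a cells the sign of the median turned, to 0.25 over 8 tested genes, with 5 higher and none lower, where 19.6% of all genes were higher and 17% lower. None of them was called in either fit. MHC class I presentation genes, which show peptides to cytotoxic T cells, did not share that order. H2-D1, a class I heavy chain, stood at 2371 and 2289 CPM in the young and 2249 and 2518 CPM in the aged libraries, and B2m, the class I light chain, at 2123 and 2314 against 2146 and 1894 CPM. The median of 19 tested class I genes was -0.08, and none was called. With all cells 1 of them was higher and 4 were lower in both aged libraries, where 18.2% of all genes were higher and 17.5% lower. Dendritic cell genes had a median of -0.46 over 15 tested, and Xcr1 itself stood at 291 and 176 against 106 and 135 CPM (-0.93 ± 0.28, adjusted p = 0.82).

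Chemokines and cytokines showed no call, and several values rested on few cells. Il1b stood at 644 and 754 CPM in the young and 1027 and 917 CPM in the aged libraries (0.47 ± 0.16, adjusted p = 0.86). Ccl6, a myeloid chemokine, stood at 739 and 1176 against 983 and 1013 CPM (0.05 ± 0.21). Ccl5, a chemokine typical of T and natural killer cells, gave 1, 4, 26 and 525 UMIs, with 109 of the last in 1 cell. Cxcl10, an interferon-induced T cell attractant, gave 41 UMIs in aged replicate 1, of which 34 came from 1 cell. Interferon-stimulated genes had a median of -0.02 over 48 tested, with 7 higher and 11 lower in both aged libraries, where the shares over all genes were 18.2% and 17.5%. None of the 48 was called.

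Macrophage differentiation and lysosome genes were likewise without a call. Apoe, a lipid carrier that macrophages accumulate, stood at 1426 and 2194 CPM in the young and 2544 and 3061 CPM in the aged libraries (0.63 ± 0.20, adjusted p = 0.86). Psap, the precursor of lysosomal saposins, stood at 3430 and 3278 against 2611 and 2441 CPM (-0.41 ± 0.12, adjusted p = 0.82). Lgals3 (galectin 3) stood at 1388 and 1609 against 1605 and 1649 CPM (0.12 ± 0.14). The macrophage list had a median of 0.12 over 19 tested members and the lysosome list 0.02 over 23.

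Another 3 lists lay to one side without any called member. Of 47 ribosomal protein genes, 30 were higher and 3 lower in both aged libraries, against 18.2% and 17.5% of all genes, and their median was 0.17. Rps24 stood at 5700 and 5328 CPM in the young and 6341 and 6630 CPM in the aged libraries (0.23 ± 0.11, adjusted p = 0.86). Of 26 immediate early genes, which respond to stimulation and to tissue dissociation within minutes, 12 were higher and 1 lower, with a median of 0.24. Fos stood at 3010 and 3261 against 4320 and 4057 CPM (0.42 ± 0.12, adjusted p = 0.82). Of 14 heat shock genes 8 were lower and 2 higher, with a median of -0.28. Hsp90ab1, a protein chaperone, stood at 1894 and 1662 against 1321 and 1185 CPM (-0.50 ± 0.14, adjusted p = 0.82). Members of a list share a response and a library, so these counts describe the 4 libraries. Without the Xcr1 or Clec9a cells the counts were 32 higher and 0 lower of 47, 14 and 1 of 25, and 1 and 7 of 14. In that fit 19.6% of all genes were higher and 17% lower.

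**Figure D5:**
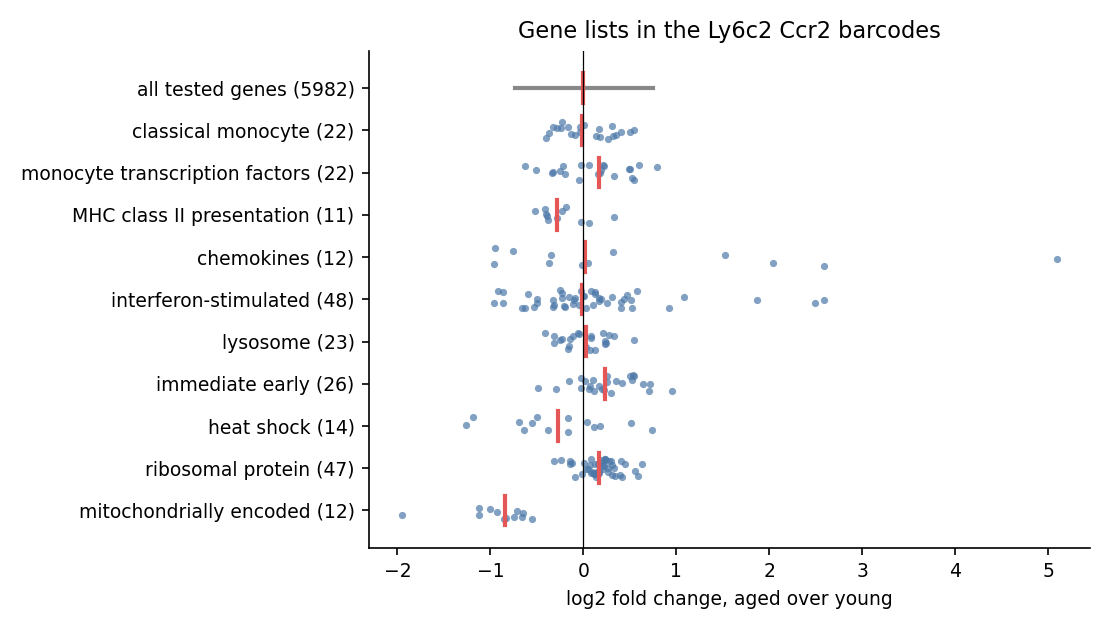
Log2 fold change, aged over young, of the tested members of 10 gene lists in Ly6c2 Ccr2 cells (points), with medians as red lines and the number tested in brackets. The grey line spans the 5th to 95th percentile of all 5982 genes. Medians are 0.17 for ribosomal protein, 0.24 for immediate early, -0.28 for heat shock and -0.84 for mitochondrially encoded genes.

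The age effect in Ly6c2 Ccr2 cells was then set against that in macrophages of the same libraries, with the library as a block. Of 14534 genes outside the rule, 32 (0.22%) differed by edgeR, 20 more positive (0.138%) and 12 more negative (0.0826%) in the Ly6c2 Ccr2 cells, while 816 (5.61%) had an unadjusted p under 0.05. The lysosomal gene Psap was among them: it stood at 3111 and 3021 CPM in young and 2550 and 2400 CPM in aged Ly6c2 Ccr2 cells, and at 1671 and 1615 CPM in young and 2487 and 2226 CPM in aged macrophages. The difference between the 2 age effects was -0.83 ± 0.15 on the log2 scale (adjusted p = 0.016). Lgals3 went from 306 and 313 to 588 and 715 CPM in macrophages and differed by -0.85 ± 0.17 (adjusted p = 0.027). Mpeg1, a pore-forming protein of phagosomes, went from 111 and 79.2 to 201 and 189 CPM in macrophages and from 1004 and 682 to 764 and 688 CPM in Ly6c2 Ccr2 cells, a difference of -1.24 ± 0.18 (adjusted p = 0.0030). Klf2 differed the other way, by 0.86 ± 0.18 (adjusted p = 0.046), with 698 and 931 CPM in young and 727 and 646 CPM in aged macrophages. These 4 genes were picked after their values were seen. Of the other gated classes compared, Psap and Mpeg1 were highest in type 1 dendritic cells at both ages. Lgals3 was highest in Ly6c-low monocytes and Klf2 in neutrophils. Values of these genes without the Xcr1 or Clec9a cells are not given here.

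The 8 genes of largest difference by the fixed rule were Saa3, Ccl7, Havcr2 and Chil3, more negative in the Ly6c2 Ccr2 cells, and Pdgfra, Cpxm2, C2 and Col14a1, more positive. Chil3 (-3.56 ± 0.54) was at most 1.90 CPM in macrophages of any library, so its difference rests on macrophage values near 0. Havcr2, the checkpoint receptor Tim-3 (-3.65 ± 0.69), stood at 90.9 and 35.7 CPM in young and 35.9 and 37.6 CPM in aged Ly6c2 Ccr2 cells, and at 1.06, 0.713, 7.06 and 6.66 CPM in macrophages. Of the other gated classes compared, Havcr2 was highest in type 1 dendritic cells at both ages. All 68 Saa3 UMIs of young replicate 2 came from 1 cell. Pdgfra, a receptor of fibroblasts (3.40 ± 0.65), gave 0 and 7 UMIs in the young and 62 and 30 UMIs in the aged libraries, in 0, 3, 7 and 9 cells. Of the 20 genes with a more positive effect, 18 passed the count filter of the age comparison in Ly6c2 Ccr2 cells. Among the other gated classes compared, 12 of those 18 were highest in fibroblasts or mesothelium at both ages. The share of all genes highest there is not given here. Without young replicate 2 the number of genes called was 318, without young replicate 1 it was 101, without aged replicate 2 it was 94 and without aged replicate 1 it was 41. It was 121 without the Xcr1 or Clec9a cells.

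Against dendritic cells with Cd209a, a lectin of monocyte-derived and type 2 dendritic cells, no gene of 8461 (0%) had a different age effect by edgeR, and 529 (6.25%) had an unadjusted p under 0.05. DESeq2 was not run on this comparison. Lyz1, a second lysozyme gene, came closest (2.71 ± 0.32 on the log2 scale, adjusted p = 0.16). It stood at 163 and 233 CPM in young and 270 and 298 CPM in aged Ly6c2 Ccr2 cells. In Cd209a dendritic cells it stood at 266 and 180 CPM in young and 46.6 and 48.1 CPM in aged libraries. The rule used the related gene Lyz2, and the part of reads split between Lyz1 and Lyz2 was not tested. The call count changed to 41 without young replicate 2, 14 without aged replicate 1 and 77 without aged replicate 2, and stayed at 0 without young replicate 1. It was 4 without the Xcr1 or Clec9a cells.

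The genes whose level was most like that of Ly6c2 over the classes and libraries were partly lymphocyte genes. The likeness is the Pearson correlation of log2(CPM + 1) over 68 sums of a class in a library, among 2086 genes with at least 50 CPM in the Ly6c2 Ccr2 cells of every library. Among the 8 highest were Shisa5 (0.69), Ccl4 (0.67), Hcst (0.66), Bin2 (0.63), Itgal (0.63), I830127L07Rik (0.62) and Glipr1 (0.59). Itgal encodes an adhesion molecule of circulating leukocytes, and Hcst encodes an adaptor of natural killer receptors. The sums share libraries and differ in depth, and the values describe these sums only.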

How the data were processed

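The deposited matrices hold UMI counts per gene and barcode as whole numbers without normalization, per the file headers. The submitters' processing notes name Cell Ranger 6.0.2 and GRCm38, and the headers name 6.0.1. The annotation and settings used are not given. No doublet caller was run.

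Members were picked by the stated rule, and 17 classes were gated by UMI thresholds on marker genes. The members and the 36 gene lists (747 genes, 7 without a single identifier) were chosen with earlier results of these data known. Counts were summed per library and class and tested with edgeR 4.0.16 (quasi-likelihood test, TMM scaling, filterByExpr) with Benjamini-Hochberg adjustment over all genes. Class counts were tested without TMM. CPM in gene comparisons are TMM-scaled over the sums compared, so they differ slightly between fits, and other levels are unscaled. Scripts were tested on simulated data. DESeq2 1.42.0 was an alternative. Cells with 3 or more UMIs of other lineages were left out in another.

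With age, called genes at 50 CPM or more whose ages did not overlap were named. Lists were illustrated by called members, else by those of highest level, and between classes by the 8 called genes of largest difference. Other genes named are markers or were picked after their values were seen. Coordinates come from GENCODE M21. Genes with near-identical copies (Ly6c2, Lyz1, Lyz2, Igkc, H2 and ribosomal protein genes) are uncertain where reads could be split. Results for some genes are not reported here.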

Additional observations from a re-analysis of the deposited data

Results flagged for a closer look

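Age effects that differed between Ly6c2 Ccr2 cells and macrophages of the same libraries were found for 32 genes by an edgeR interaction test with adjusted p-values, and the 8 of largest difference are given here on the log2 scale. Saa3, an acute phase protein, differed by -11.00 (adjusted p = 0.00049), with 68 of the 70 UMIs in Ly6c2 Ccr2 cells coming from 1 cell of young replicate 2. Ccl7, a monocyte attractant, differed by -4.61 and gave 2, 21, 2 and 1 UMIs in young replicates 1 and 2 and aged replicates 1 and 2. Havcr2 differed by -3.65 and Chil3 by -3.56, and both were rare in macrophages. Pdgfra differed by 3.40, Cpxm2, a carboxypeptidase-like protein, by 2.97, the complement factor C2 by 2.93, and Col14a1, a fibril-associated collagen, by 2.83. These 4 gave between 0 and 12 UMIs in each young library and came from 5 to 9 cells in each aged library. In macrophages they stood between 43.2 and 66.4 CPM in the young and between 12.5 and 24.8 CPM in the aged libraries. The share of fibroblasts, which express Pdgfra and Col14a1, fell with age in the same libraries (log2 ratio -1.27, adjusted p = 0.00033), and its part in these differences was not tested.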

How the results depend on the processing

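The log2 ratio of the Ly6c2 Ccr2 share stayed positive under every alternative run. Leaving out 1 library gave 1.39 to 1.72, and the replicate block gave 1.55 (adjusted p = 0.014). The call was lost with immune barcodes as denominator (0.75), after thinning to 1500 UMIs (1.04) and with TMM scaling (1.29). The cause was not tested. The genes called with age numbered 2 and moved with most settings. Leaving out 1 library gave 0 to 273, and where an age was left with 1 library it was assumed to vary like the other. The count was 4 with the replicate block, 10 after thinning, 29 with at least 2 UMIs of Ly6c2 and Ccr2, 9 without the cells carrying transcripts of other lineages and 11 with DESeq2. It was 0 without the filter on low counts, where 575 of 15956 genes had an unadjusted p under 0.05, and 0 without genes under 5% of another class, where 339 of 5912 did. Chosen after seeing the data, leaving out the Xcr1 or Clec9a cells gave 5, and leaving out those of other lineages as well gave 14. The count against macrophages ranged from 41 to 318 when 1 library was left out, and was 148 without the filter and 121 without the Xcr1 or Clec9a cells. The count against Cd209a dendritic cells ranged from 0 to 77, and was 95 without the filter and 4 without the Xcr1 or Clec9a cells. Saa3 turned to 2.92 (adjusted p = 1) without those cells, which include the 1 that carried its UMIs. Deviations of libraries with the same replicate number correlated at 0.0096 over 1456 genes, and the labels do not say what the numbers stand for, so they were not taken to pair the libraries. With 29 to 117 cells per library, genes of low level had few UMIs, which limits the precision of their fold changes, and those called at low level, such as Igkc, had large fold changes.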
